A study of Homo sapiens with 40 samples.

Results

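HRG-BT474 at 24 h was compared with its vehicle control, which used 4 of the 40 ATAC-seq libraries of the series, 2 from cells given heregulin (HRG) and 2 from cells given vehicle (water). BT474 is an established breast ductal carcinoma line that overexpresses HER2 and responds to trastuzumab, an antibody against HER2. Cells of both groups were serum-starved before treatment and collected 24 h after it. The other 36 libraries came from the same line at baseline (0 h), at 1 and 12 h and after EGF, and from BT474R, a trastuzumab-resistant clone derived from BT474, and they were used here only to follow the regions found at 24 h. Each library was represented by its own peak list, and peaks of the 4 lists that overlapped by 1 bp or more on chromosomes 1 to 22 and X were merged into 59201 regions. A region was called gained when both HRG lists and neither vehicle list had a peak in it, and lost in the opposite case. This gave 2531 gained and 1488 lost regions. The labels do not say whether duplicates were separate cultures, so every p-value below measures the spread between these libraries, which may be technical.

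Heregulin is the growth factor encoded by NRG1, and it binds the receptors HER3 and HER4. HER3 has little kinase activity of its own and signals by pairing with HER2, which has no known ligand, and the pair drives the PI3K/AKT and RAS/MAPK cascades. MAPK signalling raises the amount and activity of AP-1, a family of FOS and JUN dimers that bind a short palindromic DNA motif, and in breast carcinoma cells HRG is known for its strong and long-lasting activation of these routes. ATAC-seq reads out open chromatin, since a transposase inserts sequencing adapters where DNA is accessible, and a peak is an interval where the peak caller found more such insertions than in the rest of the library.

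The 4 lists were of similar size, with 52425 and 52766 peaks after HRG and 52331 and 50579 after vehicle, covering 32.2 to 34.0 Mb. The lists hold no totals of reads, so sequencing depth was unknown. The absence of a peak means that the caller reported none there and does not show closed chromatin. All 12 luminal breast carcinoma markers, among them ERBB2, GATA3, FOXA1, ESR1 and EPCAM, had a promoter peak in all 4 lists. Of 10 markers of other cell types, 7 had a promoter peak in none of the lists, including PTPRC of blood cells and PECAM1 of endothelium. CDH5 of endothelium and COL1A1 of fibroblasts had one in all 4 lists and PDGFRB of fibroblasts in 3, and what these peaks stand for was not tested. The covered length shared by 2 lists was 82.3% of their union for the HRG duplicates, 85.5% for the vehicle duplicates and 78.1% to 81.5% between an HRG and a vehicle list.

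The sequences around the summits show what differed most between the sets, and 7 are given here. The 5 from gained and higher-ranked regions were chosen because they hold an AP-1 match, which 3 of the 8 gained and 3 of the 6 higher-ranked regions described below lack. Each is the 200 bases centred on the summit in GRCh38, written 5′ to 3′, and capitals mark every match to the AP-1 motif TGANTCA, which reads the same on both strands up to its central base. The first 3 are gained regions, the next 2 were present in all 4 lists with a higher rank after HRG, and the last 2 are lost regions.
Gained region in an EOLA2-DT intron, chrX:150201020-150201219, plus strand: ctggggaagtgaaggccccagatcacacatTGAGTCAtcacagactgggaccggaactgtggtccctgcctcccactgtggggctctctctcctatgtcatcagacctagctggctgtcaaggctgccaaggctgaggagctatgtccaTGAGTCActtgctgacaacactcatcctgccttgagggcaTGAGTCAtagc
Gained region nearest MICAL2, chr11:12066282-12066481, plus strand: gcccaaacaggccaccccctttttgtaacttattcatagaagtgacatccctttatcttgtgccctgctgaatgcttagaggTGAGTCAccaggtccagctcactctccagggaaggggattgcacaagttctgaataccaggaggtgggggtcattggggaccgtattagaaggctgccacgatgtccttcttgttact
Gained region in an SLC1A2 intron, chr11:35337382-35337581, plus strand: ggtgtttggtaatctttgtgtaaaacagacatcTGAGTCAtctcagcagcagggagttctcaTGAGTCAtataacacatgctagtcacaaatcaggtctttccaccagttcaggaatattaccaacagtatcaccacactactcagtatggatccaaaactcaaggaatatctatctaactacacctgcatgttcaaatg
Higher-ranked region nearest BZW1, chr2:200765732-200765931, plus strand: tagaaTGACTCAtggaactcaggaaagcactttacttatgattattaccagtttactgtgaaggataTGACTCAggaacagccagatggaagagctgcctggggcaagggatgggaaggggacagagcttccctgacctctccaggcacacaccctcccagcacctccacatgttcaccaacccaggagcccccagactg
Higher-ranked region nearest TPBG, chr6:82646343-82646542, plus strand: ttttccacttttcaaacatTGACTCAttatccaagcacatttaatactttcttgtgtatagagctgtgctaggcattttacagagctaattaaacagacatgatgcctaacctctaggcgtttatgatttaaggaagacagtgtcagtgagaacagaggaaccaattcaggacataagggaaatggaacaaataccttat
Lost region nearest MAN1A1, chr6:120142027-120142226, plus strand: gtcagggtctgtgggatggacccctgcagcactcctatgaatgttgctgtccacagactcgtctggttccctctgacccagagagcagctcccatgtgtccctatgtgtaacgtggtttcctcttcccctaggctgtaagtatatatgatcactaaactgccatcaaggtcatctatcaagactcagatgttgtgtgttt
Lost region nearest CPLANE1, chr5:37254610-37254809, plus strand: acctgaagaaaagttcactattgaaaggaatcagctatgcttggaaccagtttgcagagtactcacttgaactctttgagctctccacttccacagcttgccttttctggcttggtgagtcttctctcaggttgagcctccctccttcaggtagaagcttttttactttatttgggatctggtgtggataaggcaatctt
The region in the EOLA2-DT intron held 3 matches and those in SLC1A2 and near BZW1 held 2 each. Neither lost sequence held a match.

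Most open chromatin was shared: 42809 of the 59201 regions (72.3%) had a peak in all 4 lists. The 2531 gained regions were 4.28% of all regions and the 1488 lost regions were 2.51%. Among the 5654 regions with a peak in exactly 2 of the 4 lists, 71.1% divided along treatment, whereas an equal division among the 3 ways to pair 4 lists would give 33.3%. The other pairings held 621, 403, 350 and 261 regions, each fewer than the lost set. With 2 libraries against 2 no exact test can go below p = 0.333, so no p-value is attached to these counts. Leaving out 1 list, which leaves fewer lists to satisfy, gave 4349 gained and 3305 lost regions without HRG replicate 1, 3952 and 2806 without HRG replicate 2, 3836 and 2517 without vehicle replicate 1, and 3149 and 3087 without vehicle replicate 2.

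**Figure D1:**
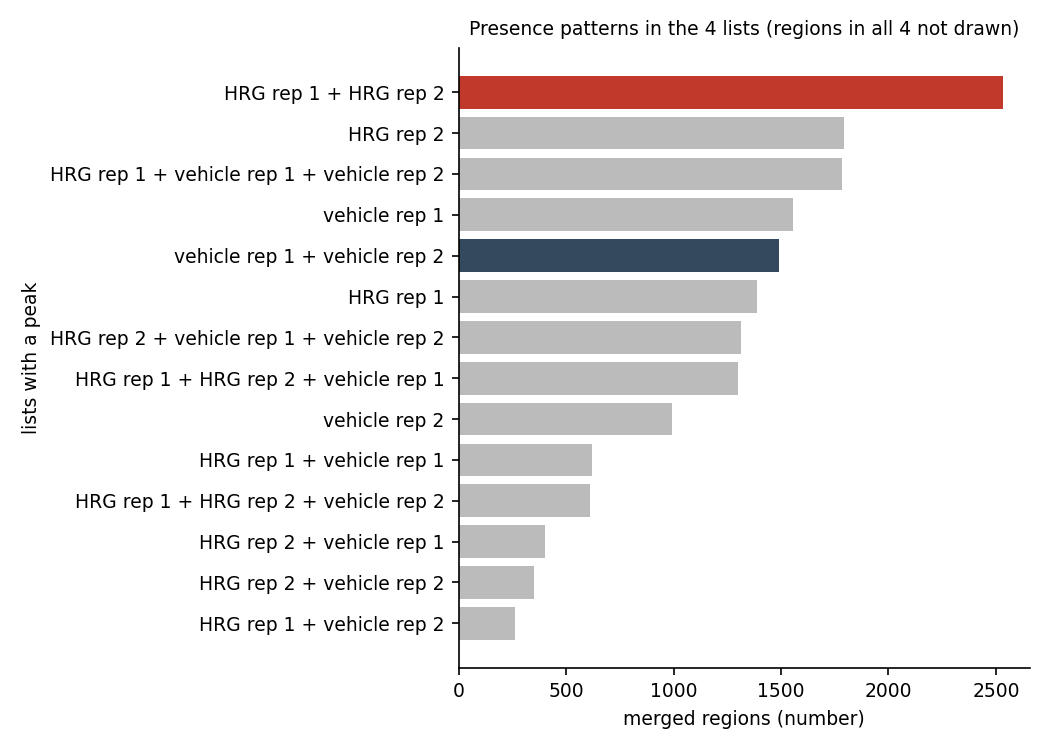
Number of merged regions (horizontal axis) for each combination of lists with a peak (vertical axis), leaving out the 42809 regions in all 4 lists; the red bar is the gained set and the dark blue bar the lost set. The 2531 gained regions form the longest bar, and the 4 mixed pairs of 1 HRG and 1 vehicle list hold 261 to 621 regions.

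Gained and lost peaks were mostly low in their lists. To compare peaks between lists, each peak was given its rank percentile, the share of peaks in the same list with an equal or lower score, so that 100 is the strongest peak of a library. The lower of the 2 HRG percentiles of a gained region had a median of 11.8, and 26 gained regions had both HRG percentiles at 50 or above. For lost regions the median was 7.17, and 6 had both vehicle percentiles at 50 or above. The nearest peak of the other group lay a median of 8240 bp from a gained region and 11550 bp from a lost one, and 8.97% of gained and 9.14% of lost regions had such a peak within 500 bp.

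The 8 gained regions ranked highest by the lower HRG percentile were all 19781 bp or more from a protein-coding start, although 2 were within 1 kb of a non-coding one, and 5 of them held an AP-1 match. The highest, on chromosome 8 (chr8:29663576-29664408, intergenic), was at the 70.0 percentile in HRG replicate 1 and 70.1 in replicate 2, and its nearest protein-coding gene, 312892 bp away by its closest edge, was DUSP4, a phosphatase that inactivates MAP kinases. A peak within an intron of DAP was at 66.3 and 64.9. One in an intron of the non-coding gene LINC00578 (chr3:177614980-177615444) was at 63.7 and 65.0 and matched none of the 18 motifs searched. The region in the EOLA2-DT intron (chrX:150200803-150201346) was at 62.2 and 62.9.
Near MICAL2, which encodes an actin-oxidizing enzyme, an intergenic region (chr11:12066022-12066549) was at 61.5 and 62.4. A region in an intron of SLC1A2, a glutamate transporter gene (chr11:35337164-35337870), was at 63.0 and 60.6. The last 2 were in an intron of NSG2 (chr5:174082151-174082648), at 59.6 and 62.5, and in an exon of non-coding genes nearest to RDH10 (chr8:73358330-73359009), at 59.6 and 65.1. No vehicle list had a peak in any of the 8 at 24 h. At other times most were not absent: the DUSP4-side region had a peak in 3 of the 4 vehicle libraries at 1 and 12 h and in both baseline libraries. Those in DAP, in LINC00578, in the EOLA2-DT intron and near MICAL2 had one in 1 to 3 of these vehicle libraries and in 1 or both baseline libraries. The regions in SLC1A2, in NSG2 and near RDH10 had none in these 6 untreated libraries.

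The 8 lost regions ranked highest held no AP-1 match. The highest, an intergenic region on chromosome 6 (chr6:120141621-120142576), was at 76.8 in vehicle replicate 1 and 72.5 in replicate 2, with the closest protein-coding start 791860 bp away at MAN1A1. A region 2923 bp from a start of NR4A1, the gene of an immediate early nuclear receptor (chr12:52059527-52060945), was at 66.6 and 64.8. A region 5196 bp from CPLANE1 (chr5:37254572-37255272) was at 58.9 and 64.3, and it had a peak in all 4 other vehicle libraries and none of the 4 other HRG libraries of BT474. An intronic region of KLF13, a zinc-finger repressor gene (chr15:31327604-31328663), was at 55.4 and 50.1, but it lay 165 bp from an HRG peak and had a peak in all 4 HRG libraries at 1 and 12 h. The remaining 4, in SDCCAG8 and MTO1 and nearest to DIPK2A and EDEM1, were between 44.8 and 57.2. Those in SDCCAG8 and near DIPK2A also had a peak in all 4 HRG libraries at 1 and 12 h, so 3 of the 8 lost regions were missing in HRG cells at 24 h alone.

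**Figure D2:**
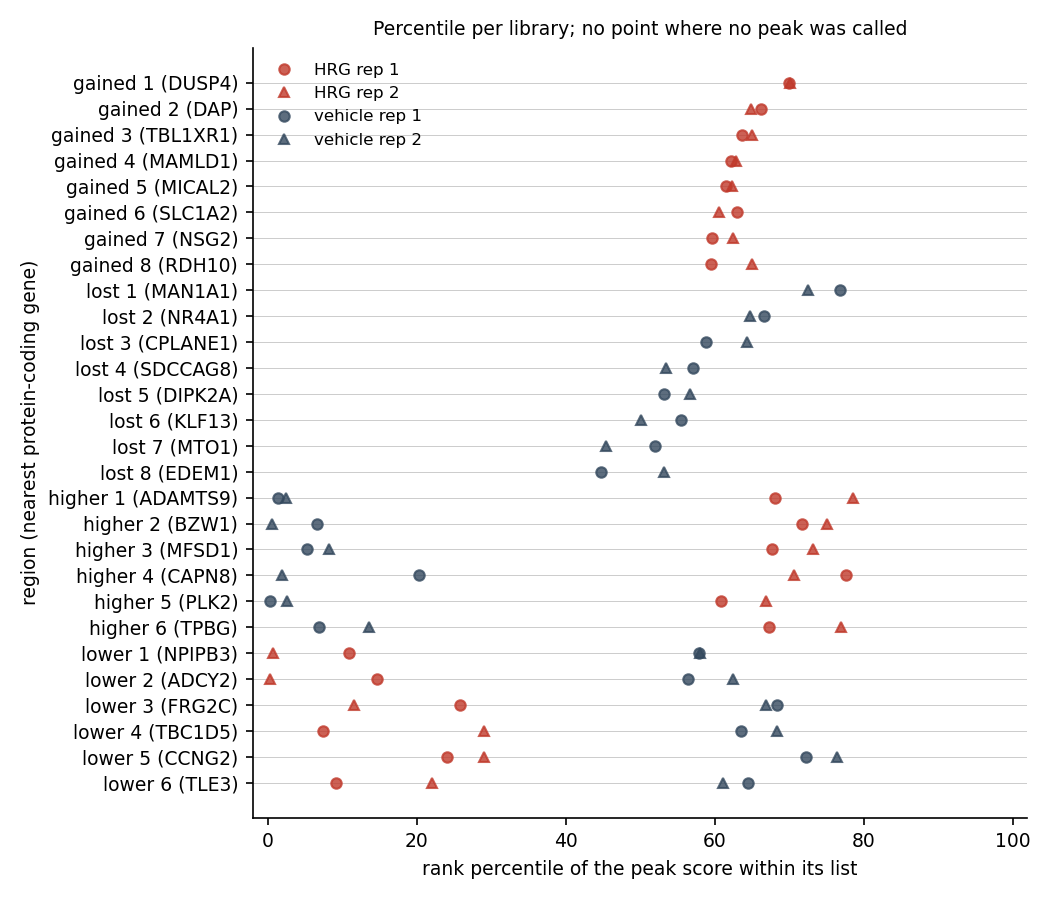
Rank percentile of the peak score within its list (horizontal axis) for the 28 regions named by rule (vertical axis, with the nearest protein-coding gene); red points are HRG, blue points vehicle, circles replicate 1 and triangles replicate 2, and a missing point means no peak was called. Gained and lost regions show 2 points of 1 colour between 44.8 and 76.8, and in the regions with 4 points the colours do not overlap.

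Gained regions were distal and rich in AP-1 matches, and lost regions were poor in them. A promoter, here a region within 1 kb of any annotated transcript start, made up 11.7% of gained regions, 21.5% of lost regions, 41.3% of regions in all 4 lists and 35.4% of all regions. The share was 21.6% in the 12373 mixed regions, those neither gained, lost nor in all 4 lists. Peaks of mixed regions were also low in their lists, with median percentiles of 10.8 to 11.5. The part of peak strength in the promoter shares was not tested. An AP-1 match lay within 100 bp of the summit in 1249 gained regions, or 49.3% (95% Wilson interval 47.4 to 51.3), against 4.57% of lost regions (3.62 to 5.75) and 15.3% of all regions. The interval covers counting error only. Outside promoters the shares were 49.5% of gained, 4.79% of lost and 19.6% of all regions. At least 2 matches were found in 11.2% of gained regions, 0.0672% of lost regions and 1.81% of all regions. The match of a gained region lay a median of 26 bp from the summit, against 54.5 bp in the 68 lost regions that had one. The full consensus with C or G at the centre was in 42.2% of gained, 2.42% of lost and 12.2% of all regions. The AP-1 share was 57.5% among the 633 gained regions with the highest percentiles and 41.9% among the 633 with the lowest. Without HRG replicate 1 the promoter share of lost regions was 36.3%, and without HRG replicate 2 it was 17.2%, so that share depended on which HRG list was used.

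Other motifs differed by fewer percentage points, although CTCF differed more as a ratio. The CEBP motif (TTGCNNAA) was in 14.8% of gained, 10.7% of lost and 10.3% of all regions. The RUNX motif (TGTGGTT) was in 6.64%, 3.23% and 4.00%, and the STAT motif (TTCNNNGAA) in 7.47%, 5.51% and 5.21%. The TEAD motif (CATTCCA), bound by factors of the Hippo pathway, was in 5.02% of gained, 7.53% of lost and 4.60% of all regions. GRHL matches (AACCNGTT), bound by grainyhead factors of epithelial cells, were in 2.61%, 5.44% and 3.87%. The CTCF motif, which marks insulators, was in 7 gained regions (0.277%), 4.77% of lost and 3.43% of all regions. SP/KLF matches (GGGCGGG), typical of promoters, were in 1.62% of gained, 7.19% of lost and 14.2% of all regions, and outside promoters in 1.34%, 3.08% and 4.02%. Forkhead matches (TGTTTAC) were in 10.4% of gained and 9.41% of lost regions. AP-2 matches (GCCNNNGGC) were in 11.2% and 13.9%, and those of GATA factors (AGATAAG) in 2.13% and 3.09%. The ETS motif was searched as CCGGAAG and the EGR motif as GCGTGGG, and each was in under 2% of both sets. E-box letters (CACGTG) were in 2.73% of gained and 4.57% of lost regions, and the CRE (TGACGTCA) in 0.237% and 0.403%. NF-kB motifs and the estrogen and androgen response elements were searched as well. All searches covered both strands, and SP/KLF and EGR matches can share bases. A match is a description of the sequence and not a bound site.

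**Figure D3:**
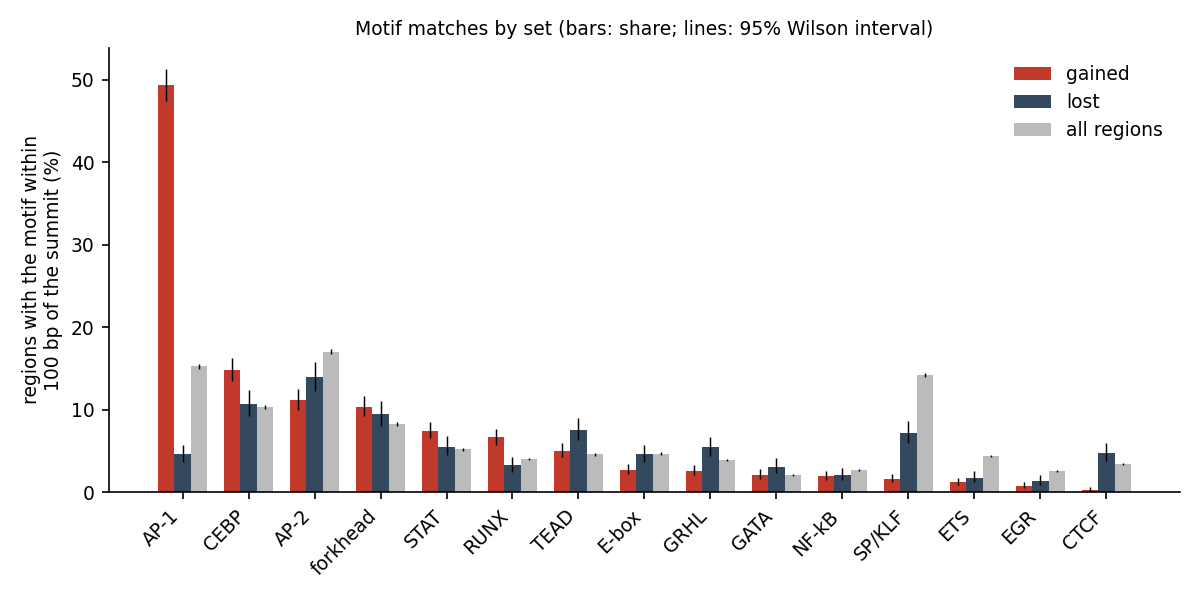
Share of regions with each motif within 100 bp of the summit (vertical axis, %) for gained, lost and all regions, with 95% Wilson intervals as lines; motifs under 1% in all 3 sets are not drawn. AP-1 stands at 49.3% in gained and 4.57% in lost regions, and the next highest value is AP-2 at 17.0% of all regions.

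Regions with a peak in all 4 lists were compared by rank percentile, which does not use the raw score and so is less tied to depth. The median difference between HRG and vehicle was -0.360 percentile points over the 42809 regions. Percentiles correlated across regions at a Spearman rho of 0.9503 between the HRG duplicates, 0.977 between the vehicle duplicates and 0.906 to 0.942 between an HRG and a vehicle library. Both HRG percentiles lay above both vehicle percentiles by a mean of at least 10 points in 4938 regions (11.5%), and below them in 3816 (8.91%). The order of these counts depended on the settings. With equal numbers of top peaks they were 4343 higher and 4499 lower. Without the 10-point limit they were 11293 (26.4%) and 11994 (28.0%). Over the 42809 regions, differences between the group means had an SD of 9.79 points. Differences between single libraries had an SD of 9.19 points for the HRG duplicates and 6.33 for the vehicle duplicates. limma with a mean-variance trend and Benjamini-Hochberg adjustment over all 42809 regions called 457 regions higher (1.07%) and 122 lower (0.285%) at an adjusted p under 0.05. Of the called regions, 47.9% of the higher and 5.74% of the lower ones held an AP-1 match, and 20.6% and 65.6% were promoters. In the larger sets, the AP-1 shares were 41.6% of the 4938 and 3.83% of the 3816 regions, beside 10.3% of the 34055 regions in all 4 lists that were in neither set.

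The number of limma calls varied widely when 1 library was left out, a fit in which the group left with 1 library is assumed to vary like the other. It was 2957 higher and 2623 lower without HRG replicate 1, 57 and 96 without HRG replicate 2, 99 and 8 without vehicle replicate 1, and 115 and 12 without vehicle replicate 2. By the 10-point rule, with the remaining lists merged again, 6738 regions were lower without HRG replicate 1. On the regions as merged from all 4 lists, the promoter share of the lower set, 43.4% with all libraries, was 54.0% without HRG replicate 1 and 26.7% without HRG replicate 2. The AP-1 share of the higher set stayed between 37.5% and 40.8% over the 4 reduced sets, and that of the lower set between 3.70% and 5.74%.

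The 6 largest rises in rank included 4 regions outside promoters and 2 within 1 kb of a start, those in MFSD1 and CAPN8. In an intron of ADAMTS9, a secreted metalloprotease gene (chr3:64551511-64552437), the percentiles were 68.1 and 78.6 after HRG and 1.4 and 2.4 after vehicle, a difference of 71.5 points (SE 5.24, limma adjusted p = 0.0262). The region nearest BZW1 (chr2:200765222-200765958) was at 71.8 and 75.1 after HRG and at 6.6 and 0.5 after vehicle. That in an intron of MFSD1, close to a start, was at 67.8 and 73.2 against 5.3 and 8.3. These 3 regions also had a peak in all HRG, EGF and vehicle libraries of BT474 at 1 and 12 h, so the rank and not the presence differed.
A region in an intron of CAPN8, a calpain protease gene (chr1:223654199-223655519), was at 77.6 and 70.7 against 20.3 and 1.9. Intergenic regions nearest PLK2 (chr5:58080665-58081361) and TPBG (chr6:82645957-82646824) differed by 62.4 and 61.9 points. All 6 passed limma at adjusted p values between 0.0262 and 0.0427. The groups did not overlap in any of them, which the rule that chose them requires.

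The 6 largest negative differences were smaller, and 5 of them passed limma. A region in an exon of non-coding genes nearest to NPIPB3 (chr16:21513380-21514502) was at 11.0 and 0.7 after HRG and 57.9 and 58.1 after vehicle, a difference of -52.2 points (SE 5.36, limma adjusted p = 0.0392). NPIPB3 belongs to a family of recent duplicates, so reads could be shared with its copies. An intergenic region 3403 bp from ADCY2, an adenylyl cyclase gene (chr5:7391819-7392735), was at 14.7 and 0.3 against 56.4 and 62.4. Near CCNG2, which encodes a cyclin linked to growth arrest (chr4:77142030-77143194), the percentiles were 24.1 and 29.1 against 72.2 and 76.4, a difference of -47.7 points (SE 4.30, limma adjusted p = 0.0350). The regions in MYLKP1 and nearest TLE3 differed by -48.9 and -47.2 points and passed as well. In an intron of TBC1D5 (chr3:17256806-17257822) the percentiles were 7.4 and 29.0 against 63.6 and 68.3, and the limma adjusted p was 0.0639.

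Libraries that played no part in choosing the regions were then examined, which asks whether regions gained at 24 h were already open earlier. At 1 h a peak was found at 39.7% and 46.1% of gained regions in the HRG libraries and at 20.3% and 19.6% in the vehicle libraries. At 12 h the shares were 77.0% and 79.0% after HRG and 10.6% and 12.2% after vehicle. HRG and vehicle libraries did not overlap at either time. The mean over both times was 60.4% ± 20.5 (SD, n = 4) after HRG and 15.7% ± 4.99 (SD, n = 4) after vehicle, and the difference within time points was 44.8 points (exact permutation within time points, two-sided, p = 0.0556, the smallest that 36 arrangements allow; 0.0741 adjusted over 8 tests). Counting only peaks with a score of 400 or more in these libraries, it was 11.1 points. Baseline libraries had a peak at 21.8% and 13.2% of gained regions. Mixed regions had a difference of 5.32 points. They are not a neutral background, since they hold regions that missed the gained or lost rule by 1 list. Of these, 1911 were in both HRG lists and 1 vehicle list and 3098 in both vehicle lists and 1 HRG list. The HRG libraries of these times held 1621 more peaks on average than the vehicle libraries.

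Lost regions showed the opposite order in HRG-BT474. At 1 h a peak was found at 27.0% and 37.2% of them after HRG and at 45.2% and 48.2% after vehicle, and at 12 h at 36.4% and 35.3% after HRG and at 58.5% and 58.3% after vehicle. The difference within time points was -18.6 points (exact permutation, two-sided, p = 0.0556, 0.0741 adjusted over 8 tests), with all 4 HRG libraries below both vehicle libraries of their time. It was -0.672 points (exact permutation, p = 0.222) when only peaks with a score of 400 or more were counted. Of the lost regions, 249 of 1488 (16.7%) had a peak in all 8 baseline and vehicle libraries, and 36.1% had none at baseline. Of gained regions, 1493 (59.0%) had no peak in any of those 8 libraries, of which the 2 vehicle libraries at 24 h chose the set, and 342 (13.5%) also had one in all 6 HRG libraries.

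**Figure D4:**
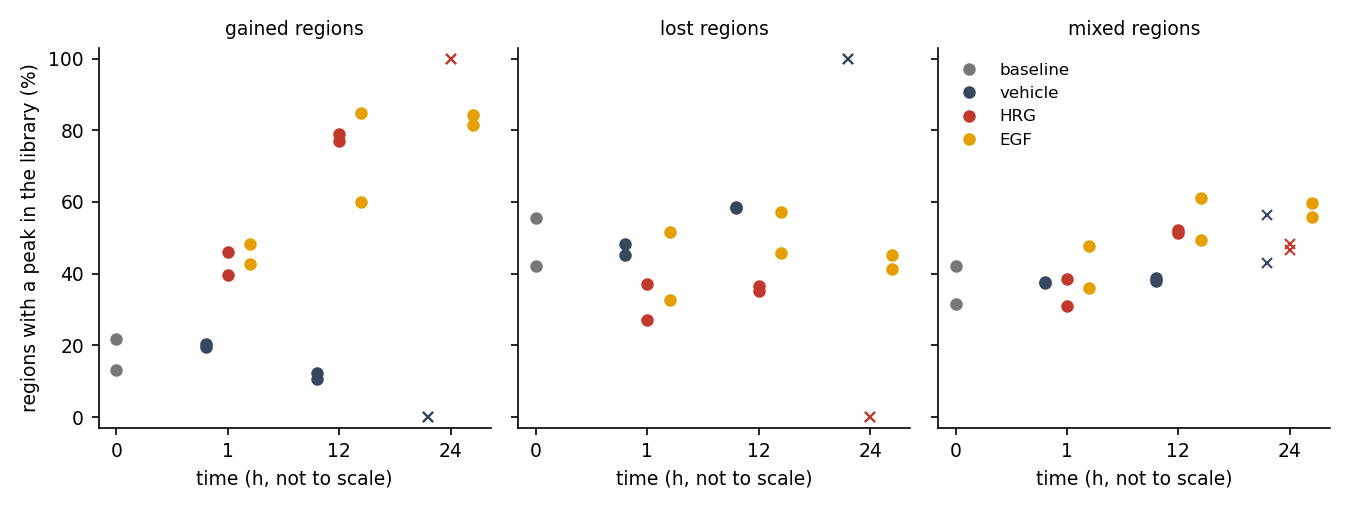
Share of gained, lost and mixed regions with a peak (vertical axis, %) in each BT474 library by time (horizontal axis, h, not to scale); grey is baseline, blue vehicle, red HRG and yellow EGF, 1 point per library, and crosses are the 4 libraries that chose the regions. At 12 h the HRG points for gained regions lie at 77.0% and 79.0% and the vehicle points at 10.6% and 12.2%, while mixed regions lie between 31.1% and 61.1% in the libraries drawn as circles.

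The motif content of gained regions differed with their peaks in the earlier HRG libraries, and vehicle libraries were not used to form these subsets. Both HRG libraries at 1 h had a peak in 894 gained regions (35.3%), and 67.1% of these held an AP-1 match. Of the 894, only 465 had no peak in either vehicle library at 1 h, so the subset is not limited to regions opened by HRG. A further 931 (36.8%) had a peak in both HRG libraries at 12 h but not in both at 1 h, and 42.2% of them held a match. In 313 (12.4%) no HRG library at 1 or 12 h had a peak, and the share was 36.1%. CEBP matches ran in the opposite order, at 10.5%, 17.2% and 20.1%, and forkhead matches stood at 8.72%, 9.34% and 17.3%, beside 10.3% and 8.26% of all regions. The sets also differed in strength, with a median lower percentile of 17.4, 13.1 and 5.12, and the part of strength in the motif shares was not tested.

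**Figure D5:**
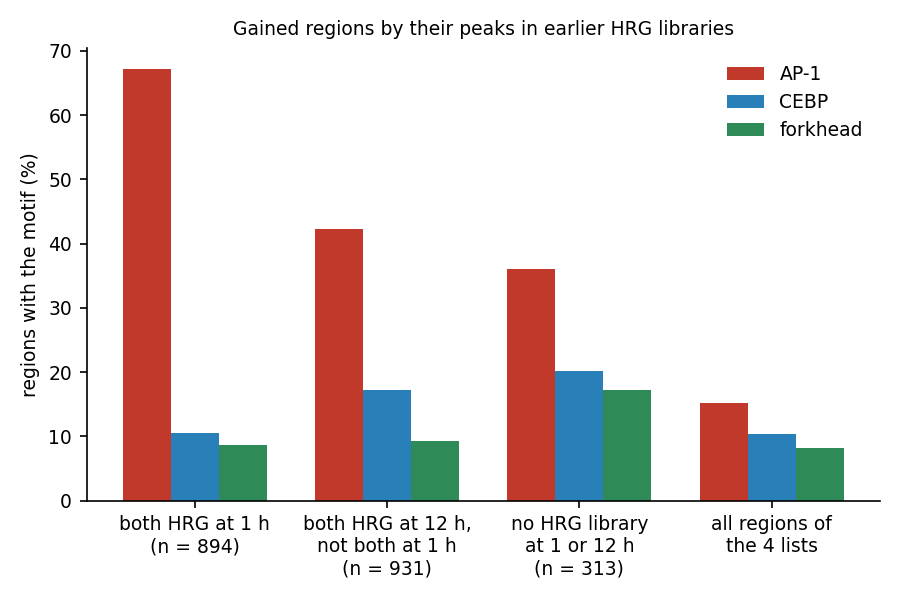
Share of gained regions with an AP-1, CEBP or forkhead match (vertical axis, %) in 3 subsets defined by their peaks in the HRG libraries at 1 and 12 h, with all regions of the 4 lists at the right. AP-1 stands at 67.1%, 42.2% and 36.1% and CEBP at 10.5%, 17.2% and 20.1% from left to right, and 393 gained regions with other patterns are not drawn.

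The higher-ranked regions were mostly higher at 12 h as well. Of the 4938 regions higher at 24 h, 4473 had a peak in all 4 HRG and vehicle libraries at 12 h, and 96.2% of these were higher after HRG by any amount, with a median of 14.6 points, beside 59.4% and 0.818 points over the regions in all 4 lists. At 1 h the median was 4.67 points and 66.5% were higher. The 3816 regions lower at 24 h had medians of -1.67 points at 1 h and -2.25 points at 12 h. At 12 h 19.4% of them were lower by 10 points or more, beside 3.60% of the regions in all 4 lists.

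EGF, a ligand of EGFR, gave values close to those of HRG at the gained regions. A peak was found at 48.4% and 42.6% of them at 1 h, at 59.9% and 84.7% at 12 h and at 81.4% and 84.1% at 24 h. Over 1 and 12 h the difference from vehicle was 43.2 points (exact permutation, two-sided, p = 0.0556, 0.0741 adjusted over 8 tests), from the same vehicle libraries as the HRG value, and 7.52 points with scores of 400 or more. With equal numbers of top peaks it was 31.3 points for EGF and 37.7 for HRG. The EGF libraries held 3339 more peaks on average than the vehicle libraries, and mixed regions had an EGF difference of 10.6 points. At the lost regions the EGF difference was -5.71 points (p = 0.389, exact permutation), and -20.6 points when every list was cut to the same number of top peaks. Only 48 gained regions lacked a peak in all 8 untreated and all 6 EGF libraries of BT474. The 2 ligands were not tested against each other.

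In BT474R, where vehicle cells already had a peak at 14.2% to 54.6% of the gained regions, the HRG libraries had one at 42.8% to 62.7%. The difference within time points was 17.2 points (exact permutation, two-sided, p = 0.00926, the smallest that 216 arrangements allow; 0.0741 adjusted over 8 tests), with all 6 HRG libraries above both vehicle libraries of their time. The HRG libraries held 4226 more peaks on average, and the difference was 6.63 points with equal numbers of top peaks. At 24 h the HRG-BT474R libraries had a peak at 62.0% and 46.7% of gained regions and the vehicle libraries at 29.2% and 39.3%. Lost regions had a difference of 2.09 points in BT474R (p = 0.611, exact permutation). EGF gave 20.6 points at gained regions (p = 0.0185, exact permutation) and -5.89 at lost regions (p = 0.0370, exact permutation), both 0.0741 after adjustment.

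To describe genes, each region was assigned to the protein-coding gene with the nearest start within 100 kb. Over all genes, 3.83% of the 49943 assigned regions were gained and 2.32% lost. Regions near genes of ERBB receptors and ligands were gained in 8 of 56 cases (14.3%) and lost in none. Of these genes, 13 of 15 had a region and 6 had a gained one, and with assignment within 10 kb the count was 2 of 28 regions. Near AREG, the gene of the EGFR ligand amphiregulin, a pair of adjacent gained regions 98796 and 99399 bp from its start was at 37.7 and 31.5 (chr4:74544098-74544566) and at 26.6 and 51.2 (chr4:74544701-74545292). An intronic region of NRG2, a neuregulin gene, was at 16.1 and 20.9, and one 2606 bp from HBEGF, another EGFR ligand gene, at 27.0 and 13.1. Both held an AP-1 match. Over starts of NRG2, a shared region (chr5:140042614-140043717) was at 43.2 and 33.5 after HRG and 70.4 and 71.4 after vehicle, and another (chr5:139903898-139904515) at 24.1 and 11.5 against 48.2 and 38.03.

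The receptor genes had promoter peaks in all 4 lists. A 14743 bp region of ERBB2 (chr17:39698559-39713301) held the strongest peak of 3 lists and was at the 99.998 percentile in the other, HRG replicate 1. Scores were not corrected for DNA copy number, and the part of copy number in this rank was not tested. The promoter of ERBB3 (chr12:56078750-56081159) was between 98.6 and 98.9. An intronic region of ERBB3, 1008 bp from a start, was gained at 8.8 and 25.3. At EGFR the promoter was at 93.0 and 88.3 after HRG and 95.1 and 93.9 after vehicle. Of its 8 regions in all 4 lists, 3 were higher and 1 was lower by 10 points or more. The largest difference among these 8, 21.9 points, was 33060 bp from a start (chr7:54985481-54985957, at 45.5 and 54.5 against 33.2 and 23.0). Outside these 8, an intronic region (chr7:55132857-55133209) was gained at 3.1 and 29.3 and held an AP-1 match. Another (chr7:55186071-55186553) was at 58.1 and 59.6 after HRG and 6.0 in vehicle replicate 1, with no peak in vehicle replicate 2. It also had a peak in 3 of the 4 vehicle libraries at 1 and 12 h and in both baseline libraries. No EGFR region was lost. ERBB4 had no gained or lost region, and a region over one of its starts (chr2:212538627-212539491) was at 49.3 and 13.7 after HRG and 60.3 and 57.5 after vehicle.

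Genes of the immediate early response and of feedback inhibition had regions of both kinds. AP-1 subunit genes had no gained region among 55 and 2 lost ones (3.64%), one 37984 bp from FOS at 10.7 and 29.6 and one over a start of FOSB, within an intron of ERCC1, at 48.8 and 6.8 in the vehicle libraries. Immediate early genes had 7 gained (8.86%) and 3 lost (3.80%) of 79 regions, but 1 gained (2.44%) and 2 lost (4.88%) of 41 within 10 kb, where all genes had 2.27% and 1.89%. At KLF6, a zinc-finger gene, 3 gained regions reached 26.6 and 37.3 and 1 lost region was at 16.0 and 18.5, and at IER3, a stress-response gene, 2 reached 32.7 and 23.0 with AP-1 matches in both. NR4A1 held the lost region described above, and IER5 a gained one at 22.2 and 22.6. Feedback inhibitors had 7 gained (5.51%) and 1 lost (0.787%) of 127 regions, and 27 of their 88 regions in all 4 lists were higher by 10 points or more, beside 3810 of 37086 over all genes.
DUSP6, an ERK phosphatase, had a gained region 4481 bp from its start at 23.7 and 25.7. ERRFI1, an inhibitor of EGFR and HER2, had one in an intron at 18.5 and 18.6, with an AP-1 match and a peak in all 4 earlier HRG libraries. SPRED2, a RAS pathway inhibitor, had 2 gained regions. Of its 22 regions in all 4 lists, 10 were higher, by up to 25.2 points, and 1 was lower, with a difference of -15.3 points. DUSP1, a phosphatase of JNK and p38, had a lost region 4321 bp from a start, at 8.9 and 28.9.

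PI3K, AKT and mTOR genes stood near the background, with 4 gained (3.36%) and 3 lost (2.52%) of 119 regions. PIK3R3, a regulatory subunit of PI3K, had 2 gained regions, of which that 1796 bp from a start was at 47.1 and 41.3. The latter also had a peak in 3 of the 4 vehicle libraries at 1 and 12 h and in 1 baseline library. AKT1 had 1 lost region at 4.5 and 7.5, and PIK3CB 1 gained at 6.8 and 18.1. Hormone receptor and luminal factor genes had 10 gained (5.18%) and 4 lost (2.07%) of 193 regions, but 1 gained (1.12%) and 3 lost (3.37%) of 89 within 10 kb. GRHL2 had 3 gained regions, the strongest at 38.5 and 41.6, and GRHL1 and TFAP2C had 1 each. GATA3, a master regulator of luminal identity, had a lost region over an exon and a start (chr10:8057764-8059036) at 36.0 and 49.0 in the vehicle libraries. As given above, GATA3 still had a promoter peak in all 4 lists.

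Lipid synthesis genes had 12 gained (8.28%) and 4 lost (2.76%) of 145 regions, and 3 gained (4.17%) and 2 lost (2.78%) of 72 within 10 kb. ACSL3, which activates long-chain fatty acids, had 4 gained regions, and the strongest, with an AP-1 match (chr2:222842512-222843173), was at 49.7 and 64.7, although all 4 vehicle libraries at 1 and 12 h also had a peak there. INSIG1, a brake on cholesterol synthesis, had a gained region 6399 bp from its start at 42.1 and 34.3, which had a peak in all 4 earlier HRG libraries and in none of the vehicle or baseline libraries. ACACA, the acetyl-CoA carboxylase gene, had 1 gained region at 34.2 and 36.0 and 1 lost at 12.8 and 16.6. LPIN1 had 2 gained and 1 lost. Glycolysis and hypoxia genes had 8 gained (4.73%) and 1 lost (0.592%) of 169 regions. EPAS1, which encodes HIF2A, had 4 gained regions, all with an AP-1 match and the strongest at 45.4 and 56.4. That strongest region also had a peak in 3 of the 4 vehicle libraries at 1 and 12 h and in both baseline libraries. PFKP, a phosphofructokinase gene, had 2 gained, at 49.0 and 54.0 and at 32.5 and 21.8. PFKFB4 had the lost region, at 12.0 and 17.5, and EGLN3, an oxygen-sensing hydroxylase gene, a gained one at 17.8 and 10.4.

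Adhesion and invasion genes had 9 gained (8.57%) and 3 lost (2.86%) of 105 regions. Of their 75 regions in all 4 lists, 23 were higher by 10 points or more, beside 3810 of 37086 over all genes. ITGB6, which encodes an epithelial integrin chain, had a gained region at 54.5 and 43.5 (chr2:160208127-160208448). It also had a peak there in 3 of the 4 vehicle libraries at 1 and 12 h and in both baseline libraries. Of the 15 ITGB6 regions in all 4 lists, 10 were higher, by up to 59.0 points, and 1 was lower, with a difference of -15.2 points. ITGA6 had 1 gained region at 38.6 and 32.8 and 1 lost at 21.3 and 9.4, ITGB1 had 2 lost, the stronger at 40.5 and 39.8, and PLAUR, the urokinase receptor gene, had 1 gained at 19.6 and 15.1. Genes linked to HER2 membrane organization had 2 gained and 4 lost of 100 regions. The lost ones included 1 at ACTN4 (27.0 and 29.7) and 2 at ACTN1, both actin crosslinkers, and CDC42 and MAL2 had 1 gained region each. Cell cycle genes had 2 gained and 1 lost of 58 regions, at CCNE2, MYC and CCNE1, and 4 of 9 shared regions of MYC were higher. Interferon response genes had 2 gained and none lost of 28, one of them in an intron of IRF2 (49.0 and 56.8). Within 10 kb, cell cycle genes had no gained or lost region among 34 and interferon response genes none among 17, and genes of HER2 membrane organization had 2 of each among 53. All of these lists rest on few regions, and none was tested.

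Over all genes, BCAS1, a gene first described as amplified in breast cancer, had the most gained regions, 5 of 32, the strongest at 31.5 and 42.5. Those with 4 included ACSL3, FRMPD4, EPAS1, CACNA1D, KCNMA1 and CRYBG1. CACNA1D and KCNMA1, which encode a calcium and a potassium channel, also had 1 lost region each. ELMO1, which encodes a partner of a RAC activator, had the most lost regions, 5 of 20, of which the strongest was at 25.8 and 23.8. NCAM1, HGD, FOXN3, GFOD1, CFTR and AUTS2 had 3 lost regions each and KLF13 had 2. AUTS2 had 2 gained regions as well among 43. At NCAM1, which encodes a neural adhesion molecule, a lost intronic region was at 40.1 and 37.6 and had a peak in all 4 other vehicle libraries.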

How the data were processed

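Omni-ATAC libraries were made from serum-starved BT474 cells given HRG or vehicle, in duplicate. Per the labels and the study's methods, the authors trimmed reads (Trim Galore 0.6.6), aligned them with BBMap to GRCh38.p13, removed mitochondrial and blacklisted signal, and called peaks in each library with Genrich. The sources used here do not give its options, insertion-site mode included. The deposited score (column 7, the area under the curve of significance, 200 or more in the 4 lists) depends on depth, which the lists do not give, so scores were turned into rank percentiles within a list. The study's test on reads was not repeated.

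Lists were merged with Python 3.11.15 and pandas 2.3.3. Promoters, genes and sequences came from GENCODE release 44 and GRCh38. Percentiles of regions in all 4 lists were tested with limma 3.58.1 (R 4.3.3), which was first tested on simulated data, and shares in other libraries with exact permutation within time points. Named regions were the 8 gained and 8 lost with the highest lower percentile and the 6 with the largest difference each way. Named genes were at most 4 per list by the highest percentile of a gained or lost region, and the 8 with the most gained or lost regions. The ERBB receptors were described whatever their values. The shared regions of ITGB6, SPRED2 and MYC were described after their values were seen. The members, gene lists and motifs were chosen with earlier results of these data known. A few items are not reported here.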

Additional observations from a re-analysis of the deposited data

Results flagged for a closer look

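The HRG values at the lost regions stood apart between the lines before adjustment. At 1 and 12 h the share of lost regions with a peak was 18.6 points lower after HRG than after vehicle in BT474 and 0.521 points higher in BT474R, a difference of -19.1 points (exact permutation within line and time, two-sided, p = 0.0278, 0.111 adjusted over 4 tests). It did not pass after adjustment. With peaks of score 400 or more the BT474 value was -0.672 points. The test was added after the data were seen, and the regions were chosen in BT474. The BT474R libraries had a peak at 4.70% to 34.6% of the lost regions, against 27.0% to 58.5% in the BT474 libraries that did not choose them, and the part of these levels in the difference was not tested. The gained regions differed by 29.0 points (exact permutation, p = 0.225).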

How the results depend on the processing

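The lists give presence and rank but no reads, so weak peaks near the calling threshold limit every count. With peaks of score 400 or more only, 1673 regions were gained, 73.3% of the regions in 2 lists followed treatment, and promoters were 13.8% of gained and 29.0% of lost regions. That share was 72.7% with equal numbers of top peaks and 67.6% with trimmed peaks. With promoters set at 3 kb they were 24.4% of gained and 33.8% of lost regions, and within 150 bp of the summit AP-1 matches were in 53.7% and 7.33%. At 20 points 1681 regions were higher and 796 lower. limma called 841 higher and 267 lower on log2 scores, and 224 higher with equal numbers of top peaks. Replicate numbers name the samples only: with 2 pairs, replicate deviations in HRG and vehicle correlated at r = 0.162 over 42809 regions, and with the replicate block limma called 1029 higher and 284 lower.

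At lost regions in BT474R, the HRG difference was -1.19 points with equal numbers of top peaks and -1.08 without HRG replicate 1 at 24 h, and the EGF difference was -2.08 points with scores of 400 or more (exact p = 0.0833) and -5.89 with the replicate block (exact p = 0.0938). Of 104 such alternatives, 2 changed direction and 9 lost an unadjusted exact p under 0.05. In BT474 no p can go below 0.0556, so no call could be made or lost there, and with scores of 400 or more the differences fell to 11.1 (HRG) and 7.52 (EGF) points at gained and -0.672 and -0.370 at lost regions. Of 122 alternatives for all other results, 65 moved the value beyond a set limit of size and 57 stayed within it. Values within the limit still differed. For example, 6764 regions were shifted higher without HRG replicate 1 against 4938 with all libraries. Likewise, limma called 83 regions lower with equal numbers of top peaks against 122 in the main fit. The cause of these changes was not tested.

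Leaving out 1 library gave 3149 to 4349 gained and 2517 to 3305 lost regions, with promoter shares of 10.5% to 15.2% and 17.2% to 36.3% and AP-1 shares of 41.9% to 44.8% and 3.81% to 6.20%. With the remaining lists merged again, shifted regions numbered 5108 to 6764 (higher) and 4112 to 6738 (lower), and limma calls 57 to 2957 and 8 to 2623. The differences at gained and lost regions ranged from 43.2 to 46.4 and -21.1 to -16.0 points for HRG in BT474, 37.0 to 49.4 and -10.5 to -0.974 for EGF in BT474, 14.7 to 19.7 and -1.08 to 5.26 for HRG in BT474R, and 18.5 to 22.6 and -7.19 to -4.59 for EGF in BT474R.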

Other observations

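Gained regions were found on every chromosome analysed, from 2.20% of the regions on chromosome 19 to 5.21% on chromosome 6. Lost regions ranged from 1.78% on chromosome 16 to 3.24% on chromosome 13. Chromosome 19 also had the lowest share of higher-ranked regions, 5.85% of those in all 4 lists. Regions that missed the presence rule by 1 list differed in AP-1 matches: 30.3% of the 1911 regions in both HRG lists and 1 vehicle list held one, against 5.33% of the 3098 in both vehicle lists and 1 HRG list, beside 49.3% of gained and 4.57% of lost regions. The 3181 regions seen in 1 HRG list alone held a match in 30.9%, and the 2548 seen in 1 vehicle list alone in 5.10%.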
